A study of Drosophila melanogaster with 16 samples.

Results

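Ethanol is broken down in 3 chemical steps. Transcripts of enzymes of those steps, and of related alcohol and aldehyde enzymes, were followed here in fly heads after a single exposure to ethanol vapor. The set comprised 9 genes: Adh, Aldh, AcCoAS, Aldh-III, Aldh7A1, Fdh, AOX1, Sodh1 and Sodh2. Every probe set whose array annotation lists one of them as a whole symbol was taken, which gave 9 of the 18769 probe sets of the array and covered 8 of the 9 genes. Adh is listed on 2 probe sets, each of which also lists Adhr, so their values belong to the pair of genes. Adh and Adhr have the same start and end among the RefSeq genes of Release 6. Aldh is listed on none in the annotation used here and was not analysed here. All 9 probe sets passed the filter on low values, a log2 expression value of at least 4 on at least 3 of the 16 arrays.

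The 7 ethanol arrays came from heads of adult Drosophila melanogaster males of the Berlin background, 2 to 4 days old, that had breathed ethanol vapor (saturated vapor diluted to 60% in humidified air) for 30 min. They were frozen at the end of the exposure (0 min) or after 30, 60, 90 or 120 min, or 180 or 210 min, of recovery. The 7 air arrays came from males that had breathed humidified air alone and were frozen at the same times, and 2 arrays came from males with no exposure. Each exposed array held 1 pool of 3 groups of 200 flies, so each exposure and time has 1 array and no repeat of a time shows how far pools differ. A whole head holds brain, eyes, antennae, fat body and muscle, and in such RNA fewer cells of a type and less RNA per cell cannot be told apart.

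Alcohol dehydrogenase (Adh), in flies a short-chain dehydrogenase, oxidizes ethanol to acetaldehyde, aldehyde dehydrogenases turn acetaldehyde into acetate, and acetyl-CoA synthetase (AcCoAS) joins acetate to coenzyme A. The acetyl-CoA made in this way can be burned in mitochondria or built into fatty acids. Drosophila larvae and adults feed on fermenting fruit, and flies without Adh are known to be sensitive to ethanol. Fdh is a class III alcohol dehydrogenase that acts on formaldehyde bound to glutathione, and Sodh1 and Sodh2 are sorbitol dehydrogenases of the same zinc-dependent family. Aldh-III is a fatty aldehyde dehydrogenase, Aldh7A1 is the fly relative of a mammalian enzyme of lysine breakdown, and AOX1 is an aldehyde oxidase.

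Head transcripts were read on all arrays. Means of the eye marker list were 12.99 to 13.35 log2 on the ethanol arrays, 12.95 to 13.29 on the air arrays and 13.03 to 13.14 on the unexposed arrays. The neuron list, 2 of whose 3 genes reached log2 4 on every array, had means of 6.79 to 7.69 after ethanol, 6.63 to 7.23 after air and 7.05 to 7.13 in unexposed heads. Fat body markers (5 genes with a probe set, 3 of them above the filter) had list means of 7.56 to 7.99 after ethanol, 7.33 to 7.75 after air and 7.54 in unexposed heads. Those means take in all 5 genes, and the 3 above the filter had a median ethanol minus air difference of -0.12 log2. Arrays of 2 kinds stood apart. Transcripts of the male reproductive tract reached log2 4 for 3 of 13 marker genes on the ethanol array at 120 min. They did so for 10, 7 and 7 of 13 on the air arrays at 0, 60 and 120 min, and for 0 of 13 on all other arrays. Gut markers did so for 5 of 13 on that ethanol array, for 6, 5 and 6 of 13 on those air arrays, and for 0 elsewhere. Antennal markers lay lower on the ethanol arrays (list means 5.86 to 7.14) than on the air arrays (7.47 to 8.74) and the unexposed arrays (8.31 to 8.38). Of 10 antennal marker genes, 9 were called lower after ethanol. Except where a value without these arrays is given, the part of both in the results below was not tested.

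Over all 7 matched times, 0 of the 9 probe sets passed limma at adjusted p < 0.05 for ethanol against air, where 0.626% of the 8625 probe sets tested did. At unadjusted p < 0.05 there were 2, beside 11.8% of all probe sets: AcCoAS, higher as were 6.1% of all, and Sodh2, lower as were 5.72%. The median difference of the 9 was -0.12 log2 and that of all probe sets -0.01. None of the 9 had ethanol and air values that were fully apart, and the share of all probe sets with that pattern was not counted.

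AcCoAS stood above air at 7 of 7 times without passing the threshold. The gene (probe set 1641148_a_at; chromosome 3L) had 12.69, 12.84, 13.31, 13.55, 13.49, 12.83 and 12.46 log2 over the 7 times, 0 to 210 min, after ethanol. After air it had 12.29, 12.24, 12.46, 12.31, 12.49, 12.26 and 12.40 at the same times, and each unexposed array had 12.43. The ethanol course thus held its highest values at 60, 90 and 120 min and was within 0.06 of air at 210 min. The matched difference was 0.40 log2 at 0 min, 1.24 at 90 min (2.36-fold) and 0.57 at 180 min. Being above air at 7 of 7 times was shared by 2.24% of all probe sets. The mean difference was 0.68 (SE 0.13, 95% interval 0.38 to 0.97, adjusted p = 0.0749 by limma), rank 43 from the highest of 8625. Within the pairs free of body-tissue transcripts on both arrays (30, 90, 180 and 210 min) it was 0.62 (adjusted p = 0.411). AcCoAS had 12.29 to 12.49 on the 3 air arrays with body-tissue transcripts and 12.24 to 12.40 on the other 4. The call turned on the settings: AcCoAS passed with array weights (0.75, adjusted p = 0.0227) and with each array centered on its median (0.70, adjusted p = 0.0497). Over 19 alternatives the adjusted p ran from 0.0227 to 0.411 and the difference from 0.58 to 0.78.

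**Figure D1:**
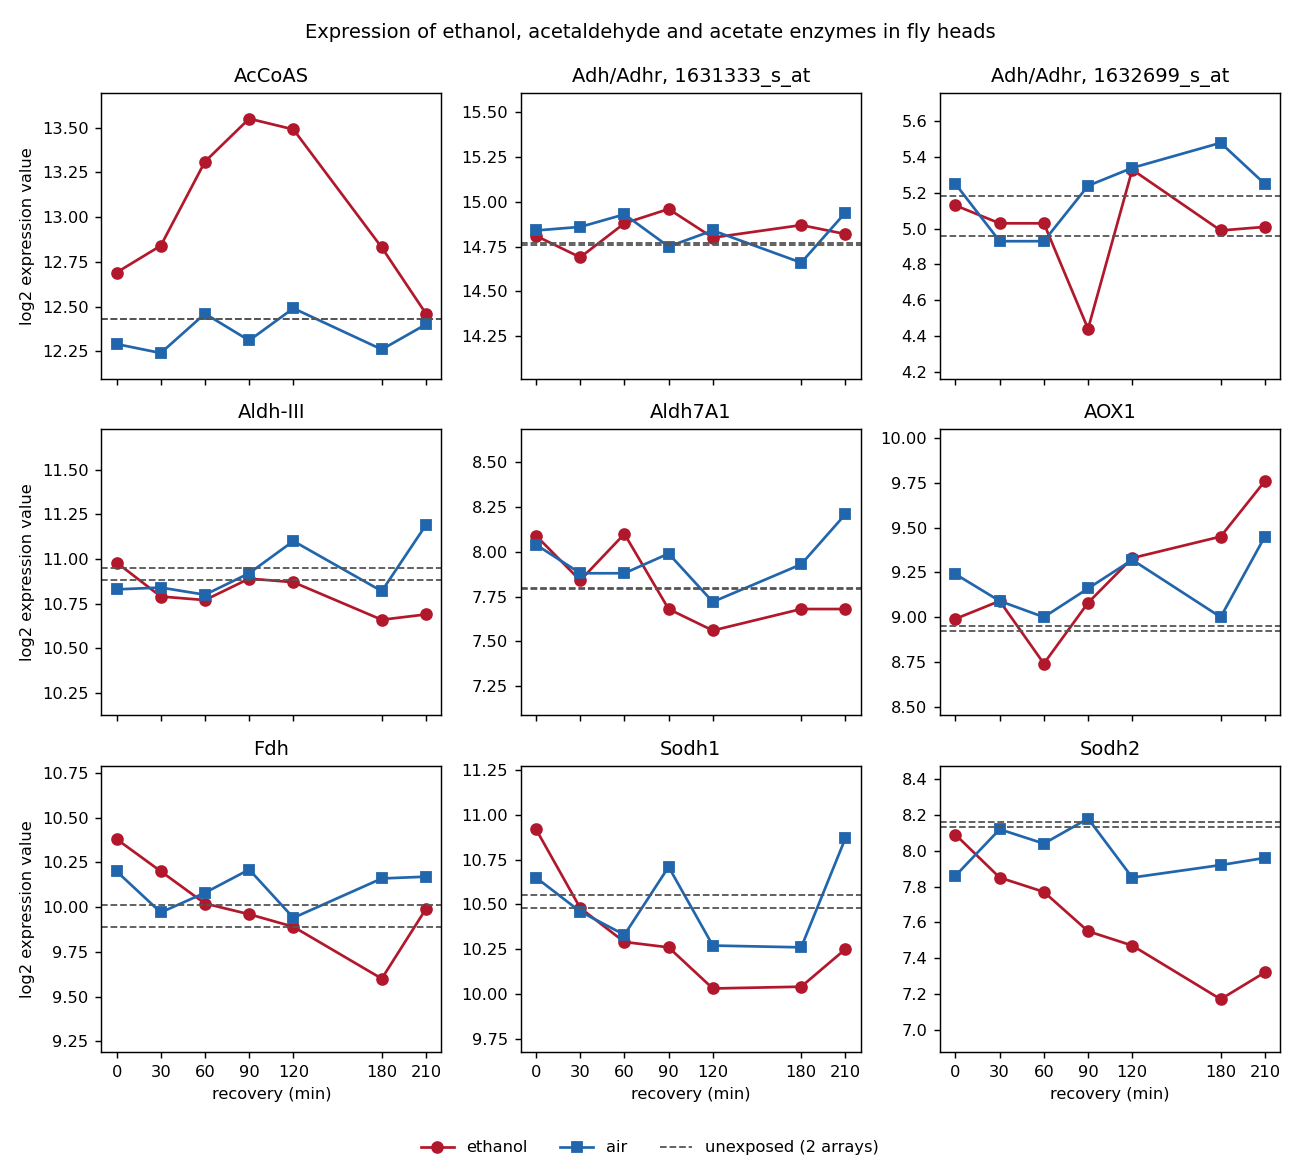
Log2 expression value of each of the 9 probe sets (vertical axis, the same span of 1.6 in every panel) against minutes of recovery, with ethanol arrays as red circles, air arrays as blue squares and the 2 unexposed arrays as dashed lines. AcCoAS after ethanol lies above both unexposed arrays at all 7 times and is highest at 90 min (13.55), while Sodh2 after ethanol lies below both at all 7 times and is lowest at 180 min (7.17). Sodh2 after air lies below both at 6 of the 7 times.

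Neither probe set shared by Adh and Adhr passed the threshold, and neither can be given to Adh alone. The first of the shared Adh and Adhr probe sets (1631333_s_at; both genes on chromosome 2L) ran from 14.69 to 14.96 log2 after ethanol with a median of 14.82. After air it ran from 14.66 to 14.94 with a median of 14.84, and the unexposed arrays had 14.76 and 14.77. The unexposed values lay inside both ranges. The difference rounded to 0.00 (SE 0.06, adjusted p = 0.994 by limma), with a 95% interval of -0.14 to 0.14. The highest value of each array was 15.05 to 15.35, little above this probe set, and whether the scale is compressed there was not tested. The second shared probe set (1632699_s_at), which never reached log2 6, ran from 4.44 to 5.33 after ethanol and from 4.93 to 5.48 after air, with 4.96 and 5.18 in unexposed heads. Its difference was -0.21 (SE 0.11, 95% interval -0.47 to 0.04, adjusted p = 0.493), and it was -0.11 without the 90 min pair, where the ethanol array had 4.44. The annotation does not say which transcripts of the gene pair either probe set reads.

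Aldh-III and Aldh7A1, the aldehyde dehydrogenases of the set that were read, lay within 0.21 log2 of air up to 60 min. Aldh-III lay below it from 30 min on, by 0.03 at 90 min, and Aldh7A1 at every time from 90 min on. Neither passed the threshold. The gap of each was largest at 210 min, where the air array had its highest value for both genes (11.19 and 8.21). Aldh-III (1627861_s_at; chromosome 2R) ran from 10.66 to 10.98 log2 after ethanol with a median of 10.79. After air it ran from 10.80 to 11.19 with a median of 10.84, and unexposed heads had 10.88 and 10.95. The ranges of the exposures overlapped. Aldh-III was 0.15 above air at 0 min and 0.49 below at 210 min. Aldh7A1 (1623216_s_at; chromosome 3L) ran from 7.56 to 8.10 after ethanol and from 7.72 to 8.21 after air, with 7.79 and 7.80 in unexposed heads. Aldh7A1 lay below air at 90, 120, 180 and 210 min and 0.21 above it at 60 min. Over all times the difference was -0.12 for Aldh-III (95% interval -0.29 to 0.05) and -0.14 for Aldh7A1 (-0.34 to 0.05), with adjusted p = 0.581 and 0.567 by limma.

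AOX1 lay above air at 180 and 210 min, also without passing the threshold. Its values (1640489_at; chromosome 3R) were 8.99, 9.09, 8.74, 9.08, 9.33, 9.45 and 9.76 log2 over the 7 times after ethanol. After air they were 9.24, 9.09, 9.0, 9.16, 9.32, 9.0 and 9.45, and unexposed heads had 8.92 and 8.95. All 7 air arrays and 6 of 7 ethanol arrays were above both unexposed arrays. AOX1 was 0.25 below air at 0 min and at 60 min, and 0.45 and 0.31 above it at 180 and 210 min. The mean difference over all times was 0.03 (95% interval -0.18 to 0.24, adjusted p = 0.946 by limma).

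Sodh2 had the lowest difference of the 9 probe sets. The sorbitol dehydrogenase gene (1634742_at; chromosome 3R) had 8.09, 7.85, 7.77, 7.55, 7.47, 7.17 and 7.32 log2 over the 7 times, 0 to 210 min, after ethanol. After air it had 7.86, 8.12, 8.04, 8.18, 7.85, 7.92 and 7.96, and unexposed heads had 8.13 and 8.16. Apart from the last time, each ethanol value was below the one before it, while the air values showed no such order. Sodh2 was 0.22 above air at 0 min and lower at the other 6 times, by 0.75 log2 at 180 min (0.594-fold). Being lower at 6 or 7 of 7 times was shared by 11.9% of all probe sets. The mean difference was -0.39 (SE 0.11, 95% interval -0.64 to -0.13, adjusted p = 0.245 by limma). Sodh2 passed without the 0 min pair (-0.49, adjusted p = 0.0383) and with the body-tissue score of each array as a covariate (-0.59, adjusted p = 0.0338). In the 4 pairs free of body-tissue transcripts the difference was -0.57 (adjusted p = 0.23), and Sodh2 had 7.85 to 8.04 on the 3 air arrays that held them and 7.92 to 8.18 on the other 4. Over 19 alternatives its adjusted p ran from 0.0338 to 0.622.

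Fdh and Sodh1 also had their highest ethanol value at 0 min, and their mean differences were closer to 0 than that of Sodh2. Fdh (1636740_at; chromosome 3R) is a near neighbor of Sodh2, with 1 gene, CG4596, between them in the RefSeq table of Release 6. Its values after ethanol ran from 9.60 (180 min) to 10.38 (0 min) with a median of 9.99. After air they ran from 9.94 to 10.21 with a median of 10.16, and unexposed heads had 9.89 and 10.01. Sodh1 (1639892_at; chromosome 3R) ran from 10.03 (120 min) to 10.92 (0 min) after ethanol with a median of 10.26. After air it ran from 10.26 to 10.87 with a median of 10.46, and unexposed heads had 10.48 and 10.55. Both genes were above air at 0 min, by 0.18 and 0.27, and below it at 180 min, by 0.56 and 0.22. Ethanol and air overlapped for each gene. The mean difference was -0.10 for Fdh (95% interval -0.31 to 0.11, adjusted p = 0.746) and -0.18 for Sodh1 (-0.41 to 0.05, adjusted p = 0.52), by limma.

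**Figure D2:**
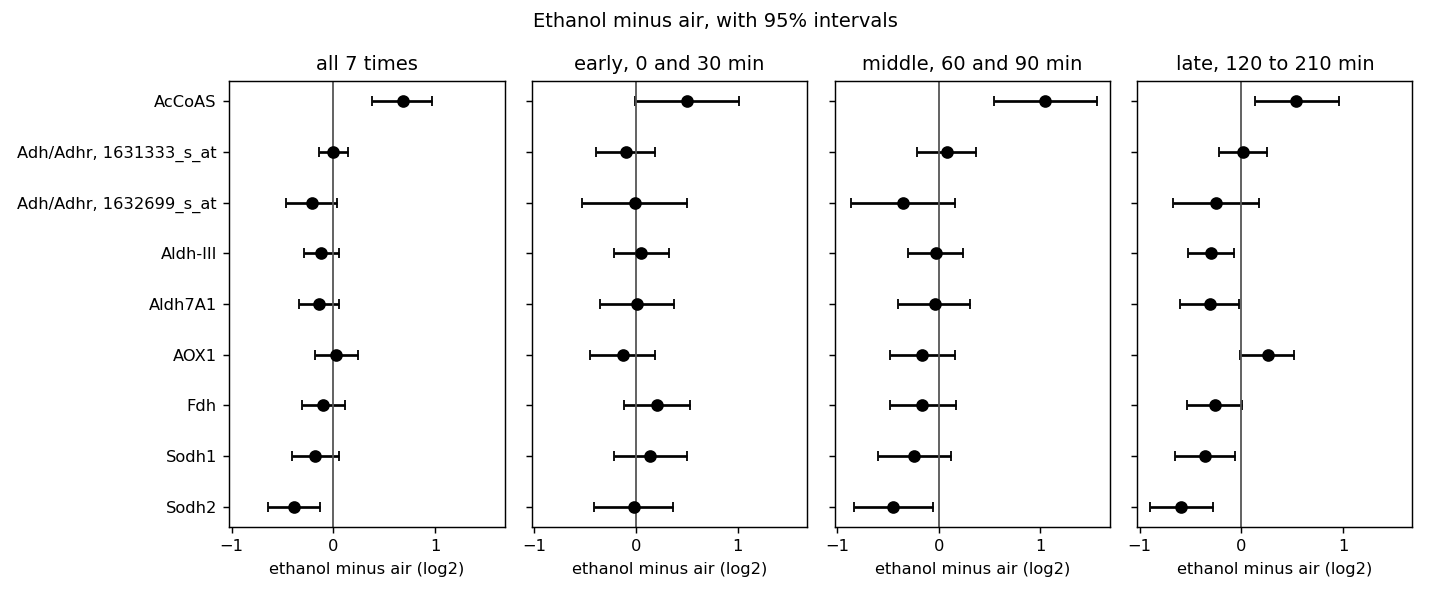
Mean ethanol minus air difference in log2 (horizontal axis) with its 95% interval for the 9 probe sets, over all 7 times and within early, middle and late recovery. The mean of AcCoAS lies to the right of 0 in all 4 panels with 1.05 in the middle window, while its early interval runs from -0.01 to 1.01. Sodh2 has -0.02 early, the mean of 0.22 at 0 min and -0.27 at 30 min, and -0.59 late.

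Grouping the times asked when the exposures parted. In early recovery (0 and 30 min) 0 of 9 probe sets passed limma at adjusted p < 0.05, beside 0.0348% of all, and 0 had unadjusted p < 0.05, beside 6.09%. In middle recovery (60 and 90 min) 0 of 9 passed, beside 0% of all, and 2 had unadjusted p < 0.05, 1 higher and 1 lower, beside 10.2% of all (6.26% higher and 3.97% lower). AcCoAS then stood at 1.05 log2 (2.06-fold, SE 0.21, adjusted p = 0.159) and Sodh2 at -0.45 (SE 0.16, adjusted p = 0.402), the mean of -0.26 at 60 min and -0.63 at 90 min. In late recovery (120, 180 and 210 min) 0 of 9 passed, beside 0.858% of all, and 5 had unadjusted p < 0.05, beside 11.8%. These were AcCoAS at 0.54 and, below air, Sodh2 at -0.59, Sodh1 at -0.36, Aldh7A1 at -0.31 and Aldh-III at -0.30, with adjusted p from 0.13 to 0.397. Without the 120 min pair, where both arrays held body-tissue transcripts, AcCoAS had 0.32 late and Sodh2 -0.69. Without the 210 min pair AcCoAS had 0.78, Sodh1 -0.23 and Aldh-III -0.20. By that unadjusted rule 3.17% of all probe sets were higher and 8.64% lower. Ethanol was below air at all of 90, 120, 180 and 210 min for 6 of the 9 probe sets, a pattern of 17.7% of all: Sodh2, Sodh1, Fdh, Aldh-III, Aldh7A1 and the second shared Adh and Adhr probe set. The median of the 9 was 0.01 early, -0.16 in the middle window and -0.26 late, where all probe sets had medians of 0.07, -0.01 and -0.06. With the arrays quantile normalized again, late differences were 0.61 for AcCoAS, -0.52 for Sodh2, -0.26 for Sodh1, -0.23 for Aldh7A1 and -0.21 for Aldh-III. All probe sets then had a late median of 0.006.

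A straight line through the 7 matched differences gave each probe set a slope per hour of recovery. None of the 9 slopes passed limma at adjusted p < 0.05, beside 0.429% of all probe sets. At unadjusted p < 0.05 there were 6, beside 15.4% of all probe sets: 5 negative slopes, beside 13.2%, and 1 positive slope, beside 2.21%. Slopes were -0.22 log2 per hour for Sodh2 (95% interval -0.36 to -0.08), -0.19 for Sodh1 (-0.32 to -0.06) and -0.16 for Fdh (-0.30 to -0.02). Aldh7A1 had -0.15 (-0.28 to -0.03) and Aldh-III -0.14 (-0.24 to -0.04), and the 5 adjusted p-values were 0.157 to 0.258. Without the 0, 60 and 120 min pairs, which held body-tissue transcripts, the slopes were -0.12 for Sodh2, -0.14 for Sodh1, -0.17 for Fdh, -0.12 for Aldh7A1 and -0.13 for Aldh-III, with adjusted p of 0.833 to 0.874. Leaving out the 0 min pair alone gave Sodh2 a slope of -0.14. With the arrays quantile normalized again, the slopes were -0.16 for Sodh2, -0.12 for Sodh1, -0.09 for Fdh, -0.10 for Aldh7A1 and -0.08 for Aldh-III, beside a median of 0.0 for all probe sets. AOX1 had the positive slope, 0.18 per hour (0.06 to 0.30, adjusted p = 0.157), rank 235 from the highest of 8625. It was 0.15 without the 0, 60 and 120 min pairs (adjusted p = 0.78) and 0.25 with quantile scaling. AcCoAS had a slope of -0.08 (-0.34 to 0.17, adjusted p = 0.722), which was 0.09 without the 210 min pair and -0.20 without the 0 min pair, and its differences were largest in the middle of the course, which a line does not describe. The slopes of the shared Adh and Adhr probe sets were 0.03 (-0.09 to 0.15) and -0.10 (-0.31 to 0.11). The median slope was -0.14 per hour for the 9 and -0.05 for all probe sets.

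**Figure D3:**
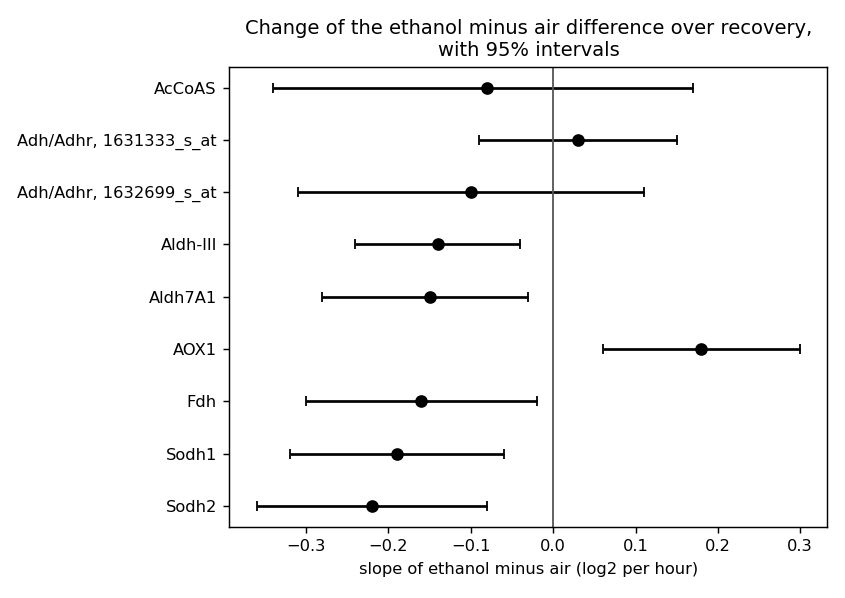
Slope of the ethanol minus air difference in log2 per hour of recovery (horizontal axis) for the 9 probe sets, with 95% intervals from limma over 7 matched pairs. The intervals of Sodh2, Sodh1, Fdh, Aldh7A1 and Aldh-III lie below 0 and that of AOX1 above it, before adjustment over all probe sets.

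Against the unexposed arrays, 0 of 9 probe sets passed limma after ethanol at adjusted p < 0.05, beside 0.765% of all, and 2 had unadjusted p < 0.05, beside 11.2% (8.07% higher and 3.11% lower). AcCoAS stood 0.60 log2 above unexposed heads (SE 0.22, 95% interval 0.13 to 1.06, adjusted p = 0.287), with 7 of 7 ethanol arrays above both unexposed arrays, as in 7.76% of all probe sets. Sodh2 stood 0.55 below (95% interval -0.92 to -0.17, adjusted p = 0.194), with 7 of 7 ethanol arrays below both, as in 2.31% of all. After air 0 of 9 passed, beside 0% of all, and 0 had unadjusted p < 0.05, beside 6.62%. Differences of air from unexposed ran from -0.16 for Sodh2 (95% interval -0.54 to 0.22) to 0.25 for AOX1 (-0.16 to 0.65). These comparisons share the 2 unexposed arrays. AcCoAS averaged 13.02 log2 after ethanol (SD 0.42, n = 7), 12.35 after air (SD 0.10, n = 7) and 12.43 in unexposed heads, whose 2 values lay inside the air range. Sodh2 averaged 7.60 after ethanol (SD 0.32, n = 7), 7.99 after air (SD 0.13, n = 7) and 8.15 in unexposed heads. Its unexposed values lay inside the air range only through the air array at 90 min (8.18). The other 6 air arrays were, like the 7 ethanol arrays, below both unexposed arrays.

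Other genes of the same families and neighboring steps were read from a list of 36. Of these 29 had a probe set of their own and 21 passed the filter on low values. For ethanol against air 1 of the 21 rose, 1 fell and 19 did not pass limma, with a median of -0.03 log2, where 0.626% of all probe sets passed. No slope of the 21 passed, and 1 had unadjusted p < 0.05, beside 15.4% of all probe sets. Men, the cytosolic malic enzyme that makes NADPH for fatty acid synthesis, was the gene that rose. Its levels were 12.20, 12.58, 12.97, 13.33, 13.37, 13.00 and 13.06 log2 over the 7 times after ethanol, against 11.94 to 12.25 after air and 12.07 and 12.08 in unexposed heads. The rise was 0.84 log2 (SE 0.13, adjusted p = 0.0284), with 7 of 7 times above air and 1.26 at 90 min. Its adjusted p was 0.00249 with the 0 min pair left out, 0.0643 to 0.104 with any other single pair left out, and 0.0779 with the 0, 60 and 120 min pairs left out. Antdh, a short-chain dehydrogenase gene of the antenna, was the gene that fell, by 0.87 log2 (SE 0.11, adjusted p = 0.015). It ran from 8.13 to 9.09 after ethanol and was at 9.26 or above on every air array, so the exposures did not overlap. The share of all probe sets with that pattern was not counted. Antdh is also one of the 9 antennal markers called lower, and its adjusted p was 0.0593 to 0.0666 without the 30, 60, 120 or 210 min pair.

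Of the other NADPH enzymes, Men-b had a difference of -0.03 and Idh of -0.12. FASN1 and ACC, the enzymes that build fatty acids from acetyl-CoA, were chosen after their values were seen, because their courses peaked with that of AcCoAS. FASN1 differed from air by 0.23, 0.23, 0.46, 0.76, 0.59, -0.28 and -0.49 log2 over the 7 times. ACC differed by 0.84 at 90 min and by -0.57 at 210 min. Unlike AcCoAS, FASN1 and ACC were thus under air at 180 and 210 min, and their means over all times were 0.22 (adjusted p = 0.624) and 0.15 (adjusted p = 0.779) by limma. The other kept genes of the list of acetyl-CoA use and citrate, 4 in all, had other courses. The differences of mAcon1 ran from -0.09 to 0.10, and Hmgs was highest at 60 min (0.34) with 0.13 at 90 min. The difference in course between AcCoAS and these genes was not tested.

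**Figure D4:**
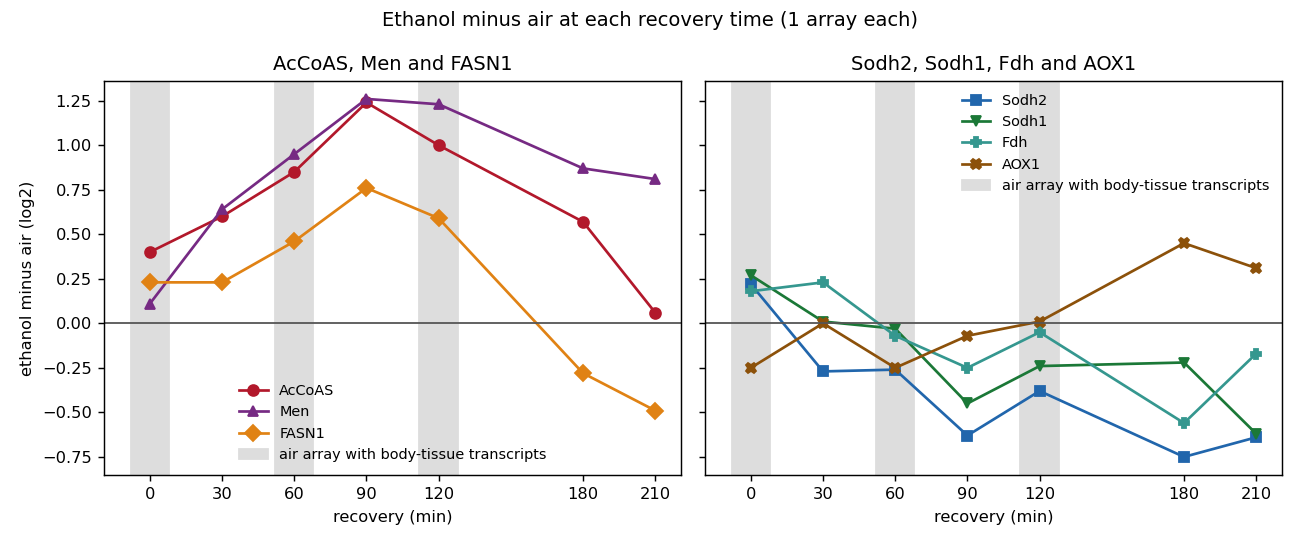
Ethanol minus air difference in log2 (vertical axis) against minutes of recovery, for AcCoAS, Men and FASN1 (left) and for Sodh2, Sodh1, Fdh and AOX1 (right), 1 array of each exposure at each time. Grey bands mark times whose air array held body-tissue transcripts. AcCoAS, Men and FASN1 are each highest at 90 min (1.24, 1.26 and 0.76), and AOX1 ends above 0 while Sodh2, Sodh1 and Fdh end below it. FASN1 was chosen after its values were seen, because its course peaked with that of AcCoAS. The share of all probe sets that are highest at 90 min was not counted.

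Genes whose log2 values ran most like each enzyme over the 16 arrays were ranked by Pearson's r, given as a description over arrays that share exposures, times and normalization. For AcCoAS these were pippin (r = 0.96) and CG12268 (r = 0.91), and for Sodh2 CG6293 (r = 0.93) and Cyp6t1 (r = 0.92). For Sodh1 they were CG18547 (r = 0.92) and lncRNA:CR33942 (r = 0.90), and for Fdh CG8360 (r = 0.89) and CG4390 (r = 0.88). AOX1 ran most like CG6409 and CCT3 (r = 0.88 each), Aldh7A1 like CG5321 (r = 0.88) and ScsbetaA (r = 0.87), and Aldh-III like SCOT (r = 0.84) and Pgm1 (r = 0.82). The first shared Adh and Adhr probe set ran most like Arr2 (r = 0.88) and EbpIII (r = 0.87), and the second like SF2 (r = 0.86) and JMJD7 (r = 0.84). Among the enzymes themselves, Aldh7A1 and Sodh1 (r = 0.78), Fdh and Sodh1 (r = 0.75), Sodh1 and Sodh2 (r = 0.70), and Aldh7A1 and Fdh (r = 0.70) ran together. The shared Adh and Adhr probe sets ran apart from each other (r = -0.52), as did AOX1 from Sodh2 (r = -0.62) and AcCoAS from Sodh2 (r = -0.54).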

How the data were processed

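Head RNA of 16 pools was extracted with Trizol, labelled with biotin and hybridized to Affymetrix Drosophila 2.0 arrays, per the labels and the series design text. The authors deposited log2 values made with GCRMA, per the submitters' processing notes (version not given in the sources used here). GCRMA corrects background from probe sequence and quantile normalizes the arrays, so a change in total RNA cannot be seen. Array medians were 2.88 to 3.03 log2. The number of arrays limits the precision.

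Of 18952 probe sets, 183 controls were left out. Of the rest, 13647 had 1 gene symbol in the array annotation, 402 several and 4720 none; symbols were updated by Entrez ID and chromosomes and neighboring genes taken from the RefSeq table of Release 6 (the array files name no build, so no coordinates are given). A filter of log2 4 on at least 3 arrays kept 8625, all fitted at probe set level with limma 3.58.1 (R 4.3.3) and Benjamini-Hochberg adjustment. Ethanol against air had the time as a factor. Slopes and windows were fitted on the 7 matched differences, and comparisons with unexposed heads on all 16 arrays. P-values measure the spread of these differences or arrays, not of pools of 1 time. The fits were tested on simulated data with independent noise, without drift over time or body-tissue transcripts. Of 200 probe sets changed 2-fold after ethanol, 95% were called over all times. The windows called 64.5% early, 60% in the middle and 82% late, so a 2-fold change could be missed there. Figures used Python 3.11.15 and matplotlib 3.10.9.

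Named were all 9 probe sets of the set, related genes that passed limma, and the 2 genes most like each enzyme. Men-b and Idh were added as the other kept NADPH enzymes. FASN1, ACC, CG31075, ry and Cat were added after their values were seen, and mAcon1 and Hmgs to stand beside FASN1 and ACC. A related or marker gene with several probe sets was read from the one with the highest mean. The body-tissue score is the mean of the reproductive tract and gut list means. The members, lists and alternatives were chosen with earlier results of these data known. Alternatives were other filters, scalings, variance models, 1 probe set per gene, array weights, a looser threshold, the body-tissue score, no matching by time, and leaving out pairs or arrays.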

Additional observations from a re-analysis of the deposited data

Results flagged for a closer look

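The second shared Adh and Adhr probe set had 4.44 log2 at 90 min after ethanol, far under the next lowest ethanol value of 4.99, a gap of 0.617 of the range of the 7 ethanol arrays. Chance gives such a gap in about 1 in 20 groups, and 27 sets of 7 values were looked at.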

How the results depend on the processing

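The count of the 9 probe sets called for ethanol against air, 0 as reported, was 1 in 4 of the alternatives: AcCoAS with each array centered on its median, with array weights and at adjusted p < 0.10, and Sodh2 with the body-tissue score as a covariate. Leaving out 1 time pair gave 0 to 1. In the other comparisons the count was 0 under every alternative run. Among 868 values of single genes under alternatives, 799 kept direction and side of the threshold, 5 passed it newly, 32 (all Men or Antdh) lost it, and 32 changed sign below it on both sides. Calls over all probe sets were less stable. For ethanol against air, 54 became 0 without a filter, 142 with array weights, 107 at adjusted p < 0.10, 25 without the 0, 60 and 120 min pairs, and 7 to 96 without 1 pair. For the slope, 37 became 3 without a filter, 19 with quantile scaling (6 rising and 13 falling, against 4 and 33), 0 with trend and robust variances, 0 without those 3 pairs and 0 to 1 without 1 pair. Late recovery went to 0 without a filter or with trend and robust variances, and to 0 to 48 without 1 pair, against 74. Ethanol against unexposed had 44 higher and 22 lower, against 22 and 24 with quantile scaling, with 66 in all against 0 or 1 without 1 unexposed array and 16 without the 4 body-tissue arrays. Early recovery had 3 calls, against 0 to 13 without 1 pair, and middle recovery 0, against 0 to 18. Air against unexposed had 0 calls, against 17 without a filter. With 1 array for each exposure and time, a difference at a single time has no replicate check.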

Other observations

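The values of 3 genes next to the ethanol pathway follow, chosen after they were seen. None of the 3 passed limma over all times or as a slope. CG31075, an aldehyde dehydrogenase gene, lay below air at 7 of 7 times (mean difference -0.30 log2, SE 0.08, adjusted p = 0.199 by limma). The gap was 0.56 at 120 min, 0.08 at 180 min and 0.03 at 210 min. Being lower at 6 or 7 of 7 times was shared by 11.9% of all probe sets. The xanthine dehydrogenase gene ry, a relative of AOX1, lay 1.24 below air at 90 min and 0.68 above it at 210 min. Catalase (Cat), which can oxidize ethanol with peroxide, had a mean difference of -0.02 (95% interval -0.20 to 0.15).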
